A study of Mus musculus with 4 samples.

Results

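The Sox2 locus was taken as all 40 kb bins of chromosome 3 that lie within 1 Mb of the Sox2 gene body in the mm9 build, from 33548927 to 35551383. This window held 51 of the 3990 bins of chromosome 3 and of the 66382 bins of the genome, and all 51 were kept in both contact matrices. Sox2 is transcribed from the plus strand from 34548927 to 34551383, and its start lies in the bin from 34520001 to 34560000, called the Sox2 bin here. The stretch 100 to 120 kb downstream of the start, from 34648927 to 34668927, lies wholly within the bin from 34640001 to 34680000, which is called the distal region bin and is 120 kb from the Sox2 bin. The rule for these bins uses no measured contact value, although the locus was chosen with earlier results of these data known.

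Hi-C, in which crosslinked and ligated DNA ends are sequenced as pairs to count contacts along the genome, was carried out in male mouse embryonic stem cells (mESCs) of 2 groups, WT and Firre KO, to ask how deletion of the Firre long non-coding RNA locus on the X chromosome bears on chromosome folding. Each group had 2 libraries, technical duplicates per the study's methods, pooled in 1 matrix, so the differences below lack a replicate check and carry no significance test. The WT cells were the N3 line cultured in 2i, a pair of kinase inhibitors that keeps mESCs in a ground state, whereas the Firre KO cells were cultured in 2i together with irradiated feeder fibroblasts, which were depleted before use. The methods name feeders for the Firre KO cells alone, although a sentence of the study's results places both groups on feeders. By the methods, genotype and culture cannot be told apart, and whether the Firre KO cells derive from the N3 line is not stated in the methods. Chromatin was cut with HindIII in both groups. RNA was not measured in these libraries, so the mESC identity could not be checked from marker genes.

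Sox2 encodes an HMG-box transcription factor that, together with Oct4, holds embryonic stem cells in the pluripotent state and is later needed in neural progenitors. In mESCs its transcription depends on a cluster of distal enhancers far downstream of the gene, often called the Sox2 control region, which lies in the distal region bin and contacts the Sox2 promoter. Topologically associated domains (TADs) are stretches of chromatin whose bins contact each other more than their surroundings, and the borders between them are often bound by CTCF, an insulator protein. Sox2 itself lies inside an intron of Sox2ot, a long non-coding RNA transcribed on the same strand.

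The sequence just before the annotated Sox2 start is shown first because it lies in the Sox2 bin, the bin whose contacts are described below. It spans 250 bases, has a GC content of 70.8%, and holds 1 CCAAT box read on the other strand (ATTGG, in capitals), which begins 56 bases before the start.

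Sox2 upstream stretch, mm9 chr3:34548677-34548926, plus strand: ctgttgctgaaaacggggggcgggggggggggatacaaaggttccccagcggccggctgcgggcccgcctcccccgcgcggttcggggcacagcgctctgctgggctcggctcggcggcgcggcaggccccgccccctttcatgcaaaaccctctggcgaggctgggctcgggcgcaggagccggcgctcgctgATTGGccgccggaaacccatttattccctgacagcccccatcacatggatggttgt

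The window was searched on both strands for the CTCF core motif and for the joint motif of Oct4 and Sox2, each as a pattern with free positions of which the printed matches below are instances; no match of one overlaps a match of the other. The CTCF core had 15 matches in 14 of the 51 bins, and 18.1% of all 3888 chromosome 3 bins kept in both matrices held at least 1 match. The Oct4 and Sox2 motif had 4 matches in 4 bins, against 4.04% of chromosome 3 bins. Neither pattern had a match in the Sox2 bin or in the stretch 100 to 120 kb downstream, which says only that these letters are not in these windows. The other bins among the 5 highest contacts of either matrix, at 480, 600, 760, 800, 880 and 920 kb downstream, held no match. The 4 matches printed here have 20 flanking bases on each side and the match in capitals. They lie closest upstream of Sox2, in the high-contact bins 440 and 840 kb downstream, and in the bin of the downstream boundary.

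CTCF core 55.1 kb upstream of the Sox2 start, mm9 chr3:34493840-34493891, plus strand: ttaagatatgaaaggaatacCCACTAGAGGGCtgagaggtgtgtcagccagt
Oct4 and Sox2 motif 420.1 kb downstream, mm9 chr3:34969054-34969105, minus strand: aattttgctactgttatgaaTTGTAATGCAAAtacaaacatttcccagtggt
CTCF core 832.5 kb downstream, mm9 chr3:35381420-35381471, minus strand: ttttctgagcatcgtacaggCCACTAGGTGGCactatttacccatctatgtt
CTCF core 939.4 kb downstream, mm9 chr3:35488268-35488319, minus strand: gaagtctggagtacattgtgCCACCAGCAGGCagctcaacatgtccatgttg

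The CTCF core 55.1 kb upstream reads on the plus strand and those 832.5 and 939.4 kb downstream on the minus strand. The first thus points toward the others across Sox2. Nearer CTCF cores 173.5 and 239.5 kb downstream, not printed, also read on the minus strand. Their bins contacted the Sox2 bin at 1.05 and 1.18 times the chromosome's mean at their distance in WT, so this orientation was not particular to high contacts. Matches upstream of Sox2 lie on both strands. The CTCF core 55.1 kb upstream lies in an intron of Sox2ot, and the other 3 printed matches lie in intergenic sequence. The HindIII fragment that carries the Sox2 start is 2956 bp long, and the stretch 100 to 120 kb downstream is covered by 4 fragments of 4945, 11713, 755 and 7446 bp. The Sox2 bin has 15 HindIII sites and the distal region bin has 8, while the median bin of chromosome 3 has 13.

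With 65611012 read pairs the WT matrix was deeper than the Firre KO-labelled matrix, with 46635643, of which 43906 and 24308 joined bins of the Sox2 window. Of all read pairs, 16.1% in WT and 35.6% in the other matrix joined different chromosomes, and the corresponding shares over the window's bins were 14.8% and 27.1%. The single bin that lies wholly inside the Firre gene (6720401G13Rik in the annotation, X chromosome, 47908921 to 47988498) kept 1144 of 796087 X chromosome read pairs in the Firre KO-labelled matrix, against 1550 of 906921 in WT. By the study's methods the deletion takes in the whole Firre gene, and thus this bin. A matrix wholly from male cells with the deletion would leave the bin about empty. It was not empty, so the deletion was not seen in this bin. Directions below compare the Firre KO-labelled matrix with WT under that label. Where the bin's read pairs came from, and whether other cells or another line contributed to that matrix, was not tested. This limit holds for each comparison of the matrices below.

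Contact between the Sox2 bin and the distal region bin was high in WT and near the chromosome's mean in the Firre KO-labelled matrix. Values are given as observed over expected, the corrected contact divided by the mean of all chromosome 3 bin pairs at the same distance, with 95% counting intervals. In WT the pair held 113 read pairs and stood at 1.89 times the expected value (1.55 to 2.27). In the Firre KO-labelled matrix it held 33 read pairs and stood at 1.05 times the expected value (0.725 to 1.48). The log2 ratio of the matrices was -0.84 (-1.45 to -0.27), so the difference was larger than counting error. On uncorrected read pairs the values were 3.18 and 1.70, with a log2 ratio of -0.90. Averaged over the 3 by 3 bins around the pair they were lower, 1.18 and 0.832, with a log2 ratio of -0.51.

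Among all chromosome 3 bin pairs 120 kb apart, 2.29% were as high as this pair in WT and 42.5% in the Firre KO-labelled matrix. The ratio of the matrices was as low in 11.6% of the chromosome 3 pairs, so a difference of this size was not rare on the chromosome. The bin at the same distance upstream of Sox2 served as a mirror. It held 82 read pairs and stood at 0.868 times the expected value in WT, and held 38 read pairs and stood at 0.899 times in the Firre KO-labelled matrix. The Sox2 bin thus had a higher contact downstream than upstream at 120 kb in WT, and the intervals of both sides overlapped in the Firre KO-labelled matrix.

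**Figure D1:**
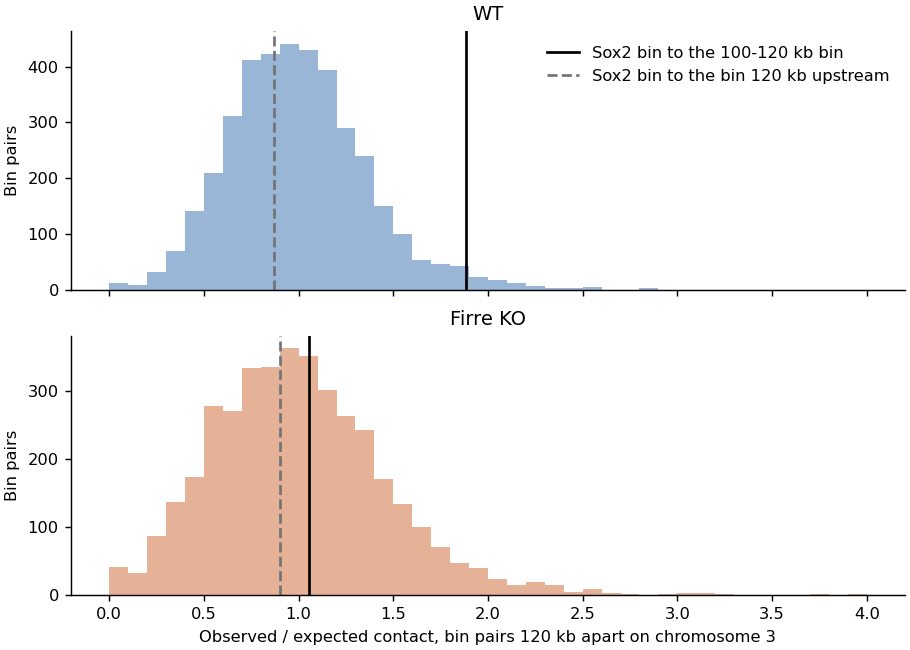
Histograms of observed over expected contact for all chromosome 3 bin pairs 120 kb apart, 3884 in WT (top) and 3863 in the Firre KO-labelled matrix (bottom); values of 4 and more would fall in the last bar. The solid line, the Sox2 bin with the distal region bin, stands at 1.89 in WT and 1.05 in the Firre KO-labelled matrix, and the dashed line is the mirror bin 120 kb upstream.

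The neighbours of the distal region bin were lower as well. At 80 kb downstream, the Sox2 bin had 97 read pairs and 1.12 times the expected contact in WT, and 30 read pairs and 0.709 times in the Firre KO-labelled matrix. At 160 kb downstream it had 112 read pairs and 1.32 times in WT, and 30 read pairs and 0.746 times in the other matrix. The log2 ratios were -0.67 (-1.31 to -0.06) and -0.83 (-1.46 to -0.24). These 3 bins were the only ones of the 48 bins at 80 kb or more from the Sox2 bin whose interval lay below 0. They made up 6.25%, while 2.76% of all chromosome 3 bin pairs at these distances had such an interval. The chromosome's share includes many pairs with few reads, which seldom give an interval off 0.

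Averaged over the 4 bins from 80 to 200 kb downstream, contact was 1.35 times the expected value in WT (1.21 to 1.49, 381 read pairs) and 0.831 times in the Firre KO-labelled matrix (0.684 to 1.00, 115 read pairs). All 4 bins were lower there, while 55.3% of chromosome 3 pairs 120 kb apart had a log2 ratio of 0.05 or lower. The corresponding 4 bins upstream stood at 0.957 and 1.09, with a log2 ratio of 0.19 (-0.09 to 0.47). The distances of these stretches were chosen after the profile had been seen.

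**Figure D2:**
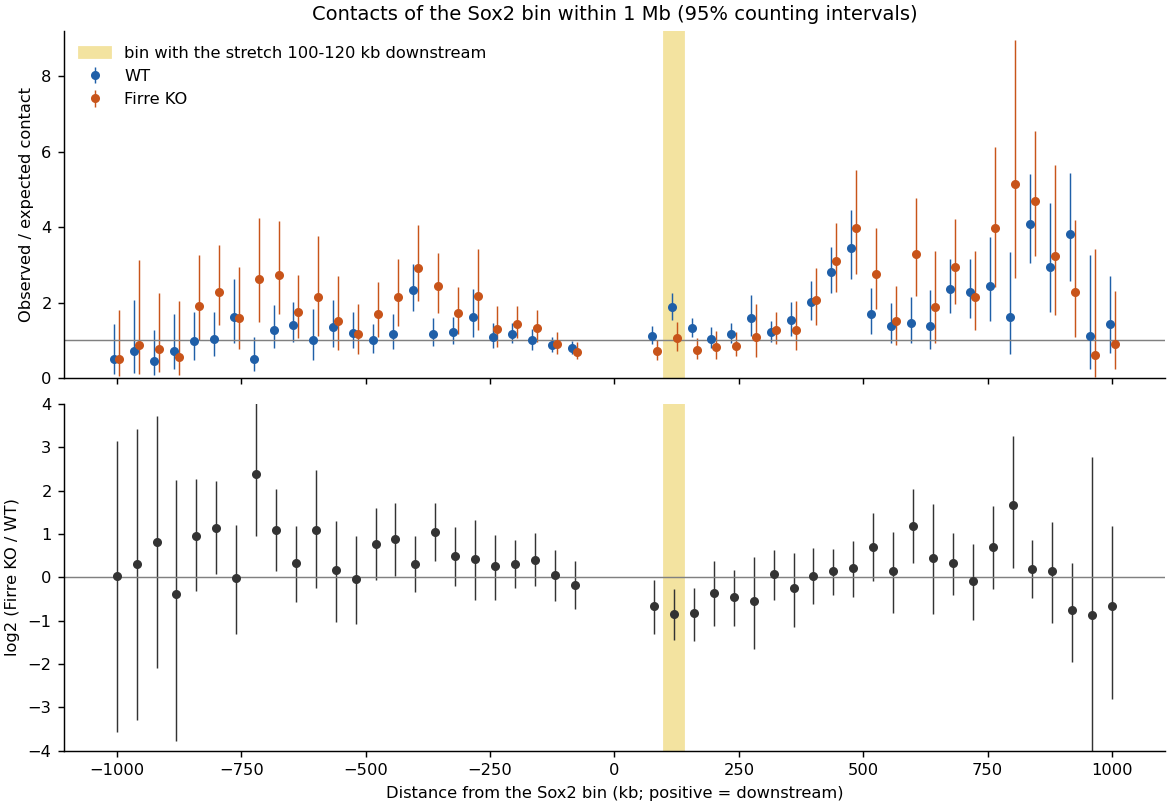
Contacts of the Sox2 bin with each 40 kb bin at 80 to 1000 kb, as observed over expected value (top) and as log2 ratio of the Firre KO-labelled matrix to WT (bottom), with 95% counting intervals; intervals past -4 or 4 run off the lower panel and the shaded band is the distal region bin. The 3 bins at 80 to 160 kb downstream lie below 0, the peaks near 480 and 840 kb downstream are present in both matrices, and most upstream bins are higher in the Firre KO-labelled matrix.

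Farther downstream, the Sox2 bin had strong contacts that were present in both matrices. The bin 480 kb downstream, from 35000001 to 35040000, held 58 read pairs at 3.45 times the expected value in WT (2.62 to 4.46) and 35 read pairs at 3.97 times in the Firre KO-labelled matrix (2.77 to 5.52). Only 0.413% and 0.260% of chromosome 3 bin pairs at that distance were as high. The bin next to it, 440 kb downstream, which contains the printed match of the Oct4 and Sox2 motif, stood at 2.82 in WT with 89 read pairs and at 3.10 in the other matrix with 47.

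A further peak lay 840 kb downstream, from 35360001 to 35400000, in the bin with the printed CTCF core on the minus strand. It held 50 read pairs at 4.10 times the expected value in WT (3.043 to 5.404) and 34 read pairs at 4.69 times in the Firre KO-labelled matrix (3.25 to 6.55). The bins at 480 and 840 kb were the ones that ranked among the 5 highest of both matrices. In WT the list of 5 was completed by the bins at 920 kb (3.81, 30 read pairs), 880 kb (2.95, 18 read pairs) and 440 kb downstream. In the Firre KO-labelled matrix it was completed by the bins at 800 kb (5.14, 12 read pairs), 760 kb (3.98, 20 read pairs) and 600 kb downstream (3.29, 27 read pairs). All of the highest bins of both matrices lay downstream of Sox2, in the part of the window that carries no annotated gene.

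For the shared peaks the log2 ratios were 0.20 at 480 kb (-0.44 to 0.83), 0.14 at 440 kb (-0.40 to 0.66) and 0.19 at 840 kb (-0.48 to 0.85). Each interval includes 0, so a difference was not detectable at this depth, and changes of up to about the bounds of the intervals remain possible. The bin at 800 kb moved most among the highest bins, from 1.62 times the expected value and 7 read pairs in WT to 5.14 and 12 read pairs, a log2 ratio of 1.67 (0.21 to 3.25) that rests on few reads. The bin at 920 kb moved the other way, from 3.81 to 2.27, with a log2 ratio of -0.75 (-1.94 to 0.33).

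Upstream of Sox2, contact was higher in the Firre KO-labelled matrix. Over the 24 bins from 80 to 1000 kb upstream, the mean was 1.09 times the expected value in WT (0.991 to 1.21, 748 read pairs) and 1.63 in the Firre KO-labelled matrix (1.46 to 1.83, 511 read pairs). The log2 ratio was 0.58 (0.38 to 0.79), and 20 of the 24 bins were higher. Among chromosome 3 pairs 520 kb apart, 47.0% had a log2 ratio of -0.03 or higher. At 760 kb, 46.2% had a log2 ratio of -0.02 or higher. Over the 24 bins downstream the means were 1.97 and 2.18, with a log2 ratio of 0.15 (-0.05 to 0.35), and the lower contact at 80 to 200 kb stood beside higher contact at 520 to 640 kb, where the mean was 1.48 in WT and 2.36 in the other matrix, a log2 ratio of 0.67 (0.24 to 1.11).

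The bin 360 kb upstream, within Sox2ot, held 41 read pairs at 1.18 times the expected value in WT and 39 read pairs at 2.43 times in the other matrix, a log2 ratio of 1.05 (0.37 to 1.71). The bin 720 kb upstream held 6 read pairs at 0.501 times in WT and 16 read pairs at 2.62 times, a log2 ratio of 2.39 (0.96 to 4.03). The intervals of 7 of the 48 bins lay above 0, namely those 800, 720, 680, 440 and 360 kb upstream and 600 and 800 kb downstream. That share was 14.6%, against 3.10% of all chromosome 3 bin pairs at these distances. Of those 90296 pairs, 49099 had 10 or more read pairs in both matrices together, while 43 of the 48 Sox2 bins did. Pairs with few reads seldom give an interval off 0, so the shares differ in depth as well and are not compared further.

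In WT, 10 of the 48 bins contacted the Sox2 bin at 2 or more times the expected value, a share of 20.8% against 7.19% over chromosome 3. The Firre KO-labelled matrix had 20 of 48, a share of 41.7% against 10.3%. Contact was at least 2-fold higher there than in WT for 7 of 48 bins, close to the 15.1% of all chromosome 3 pairs, and at least 2-fold lower for 0 of 48, against 23.2% of chromosome 3 pairs. With at least 10 read pairs in both matrices together, which 43 of the bins had, 10 and 20 were past 2-fold (8.35% and 12.1% of such chromosome 3 pairs), and 7 were at least 2-fold higher and 0 lower (9.08% and 13.6%). On uncorrected read pairs 37 bins in WT and 34 in the Firre KO-labelled matrix were past 2-fold (11.9% and 13.0% of chromosome 3 pairs on the same measure), and 3 were higher and 3 lower (15.9% and 23.8%). With a limit of 1.5-fold on the corrected values, 17 bins in WT and 28 in the Firre KO-labelled matrix were past it (17.3% and 20.9% of chromosome 3 pairs), and 13 were higher and 6 lower (25.2% and 32.7%). The 13 higher bins, 27.1% of the 48, were near the chromosome's share.

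The share of the Sox2 bin's contacts that lay downstream was 60.4% in WT (58.1 to 62.7, from 1153 read pairs downstream and 748 upstream) and 52.3% in the Firre KO-labelled matrix (49.1 to 55.5, from 548 and 511). These intervals do not overlap. Up to 480 kb alone the shares were 58.2% and 45.9%, so the larger part of the Firre KO-labelled contacts then lay upstream. Among 3863 chromosome 3 bins, 15.8% had as high a downstream share in WT and 42.9% in the other matrix. Across the 48 bins the profiles of both matrices were alike, with Pearson's r of 0.64 and Spearman's rho of 0.63 between observed over expected values. For r, 0.1 was added to each value before the log2 was taken. Both are given as a description over bins that share the Sox2 bin and the libraries.

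The other genes of the window all start upstream of Sox2. The annotation lists 14 genes here, 5 of them protein-coding, and 0 genes downstream of Sox2. For the contacts of the Sox2 bin with the starts of these genes, the interval of the log2 ratio lay above 0 in 3 of 10 start bins at 80 kb or more, those of Ccdc39, the small nucleolar RNA SNORA17 and the pseudogene Gm5708, and below 0 in 0. All 10 lie upstream, where 5 of the 24 bins at 80 to 1000 kb had an interval above 0, beside 3.10% of chromosome 3 pairs, and nothing particular to gene starts is read from the count. The interval included 0 for Ttc14, Fxr1, Dnajc19 and Sox2ot. Ccdc39, which encodes a protein for the assembly of motile cilia, starts 805.7 kb upstream and went from 14 read pairs and 1.05 times the expected value to 20 read pairs and 2.29 times, a log2 ratio of 1.13 (0.07 to 2.23). For Ttc14, a gene of the tetratricopeptide repeat family 850 kb upstream, the values were 11 read pairs at 0.980 times and 13 at 1.91 times, with an interval from -0.31 to 2.26.

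Fxr1, an RNA-binding protein related to the fragile X protein, had 29 read pairs at 1.41 times in WT and 20 at 1.76 times in the Firre KO-labelled matrix. The start of Dnajc19, a mitochondrial co-chaperone, had 20 at 1.34 times and 11 at 1.51 times. For the start of Sox2ot, 545.6 kb upstream of the Sox2 start, the values were 26 read pairs at 1.20 times and 14 at 1.18 times, with a log2 ratio of -0.03 (-1.08 to 0.96).

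Viewed from the distal region bin, the 2 matrices were less alike than from the Sox2 bin, with r of 0.35 and rho of 0.42 over 48 bins. This difference was not tested, and bins without read pairs, to which 0.1 was likewise added, weigh on r. In WT, 9 of these bins contacted the distal region bin at 2 or more times the expected value, and 6 did in the Firre KO-labelled matrix. These were shares of 18.8% and 12.5%, beside 7.19% and 10.3% of chromosome 3 pairs 80 to 1000 kb apart, so the second was near the chromosome's own share. Between the matrices, 7 of the 48 were at least 2-fold higher in the Firre KO-labelled matrix and 4 at least 2-fold lower (15.1% and 23.2% of chromosome 3 pairs). Of the intervals, 4 lay above 0 and 2 below (3.10% and 2.76%). The 48 bins reach 1120 kb from the distal region bin, past these chromosome 3 pairs. At 1040, 1080 and 1120 kb, WT held 0, 0 and 1 read pairs and the other matrix 1, 5 and 2. These bins are among the 7 higher, and the one at 1080 kb is among the 4 intervals above 0. The bin 440 kb downstream of Sox2 held 60 read pairs with it at 2.14 times the expected value in WT and 35 at 2.20 times in the other matrix. The bin at 840 kb held 32 read pairs at 3.30 times in WT and 11 at 1.67 times, a log2 ratio of -0.98 (-2.12 to 0.04). The downstream peaks of the Sox2 bin were thus also contacts of the distal region bin in WT, but not of these 2 bins alone. In WT, mean observed over expected values were also high in blocks drawn after the map had been seen. For the bins 760 to 960 kb downstream with those 160 to 840 kb upstream, the mean was 2.66 (2.46 to 2.89). With the bins 40 to 520 kb downstream it was 2.06 (1.95 to 2.19). For the bins 400 to 480 kb downstream with those 160 to 840 kb upstream, it was 1.79 (1.66 to 1.94).

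Toward the other side, the distal region bin had few contacts upstream of Sox2 in WT. With the bin 160 kb upstream of Sox2 it had 11 read pairs and 0.487 times the expected value in WT, and 20 read pairs and 1.29 times in the Firre KO-labelled matrix, a log2 ratio of 1.40 (0.27 to 2.61). This was the 1 bin of the 12 at 40 to 480 kb upstream whose interval lay above 0, beside 3.10% of chromosome 3 pairs, and it was singled out after the values were seen. Of the 12, 9 had a higher value in the Firre KO-labelled matrix. Among chromosome 3 pairs 400 kb apart, 49.4% had a log2 ratio of -0.06 or higher. The bins 40, 80 and 200 kb upstream had lower values, with log2 ratios of -0.61, -0.32 and -0.26 whose intervals include 0. A block of the map drawn after it had been seen, from the 3 bins 40 to 120 kb downstream to the 12 bins 40 to 480 kb upstream, had a mean of 0.564 times the expected value in WT (0.511 to 0.624, 601 read pairs). In the Firre KO-labelled matrix the mean was 0.991 (0.897 to 1.10, 553 read pairs). Only 1 of the 36 bin pairs reached the expected value in WT and 18 did in the other matrix. Over chromosome 3, 42.7% of pairs 480 kb apart reached it in WT. In the other matrix, 42.5% of pairs 120 kb apart reached 1.05 times. The 18 were thus near such shares, and only the WT count was far from them. The log2 ratio of the block means was 0.81 (0.62 to 1.01). The part of the block next to Sox2 did not follow its mean. The bins 40 and 80 kb upstream stood at 0.503 times in WT (0.430 to 0.587) and 0.468 times in the other matrix (0.376 to 0.577), while those 120 to 480 kb upstream stood at 0.576 (0.515 to 0.646) and 1.095 times (0.984 to 1.22).

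**Figure D3:**
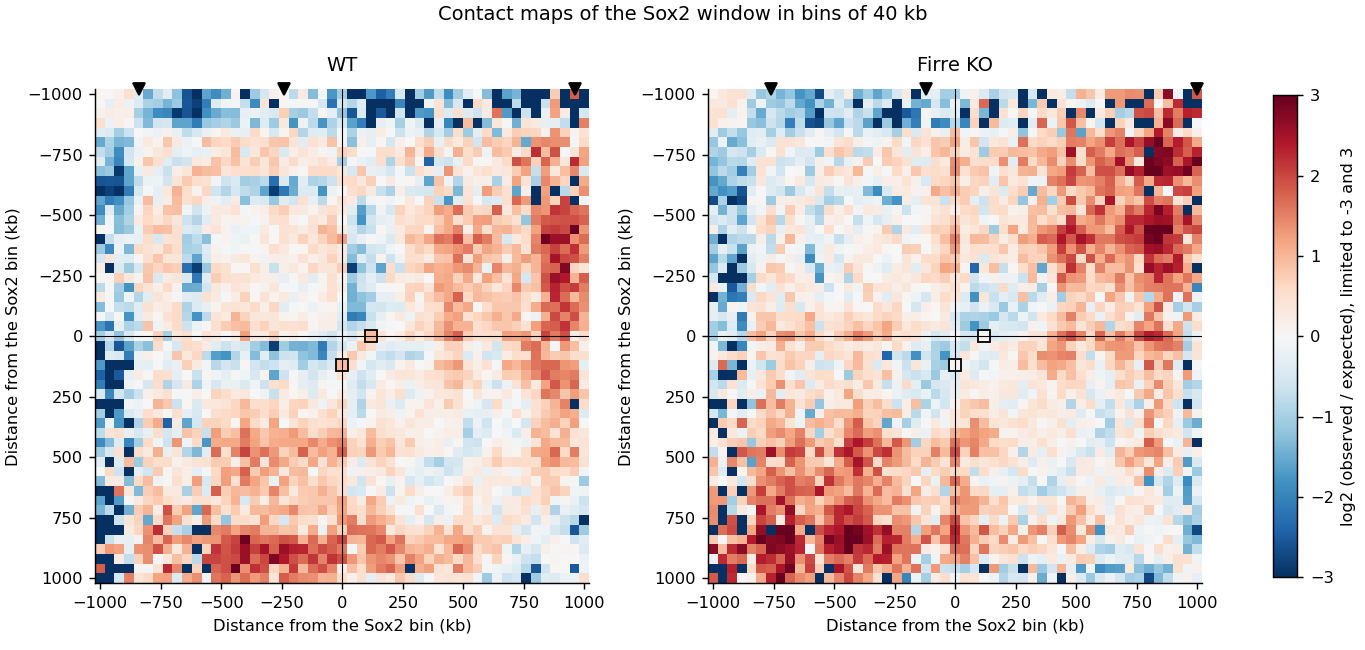
Contact maps of the Sox2 window in 40 kb bins, WT left and the Firre KO-labelled matrix right, coloured by log2 of observed over expected contact; both axes give kb from the Sox2 bin (lines), squares mark the Sox2 bin with the distal region bin, and triangles mark boundaries called with the 480 kb square. The block between 40 to 120 kb downstream and 40 to 480 kb upstream averages 0.564 times the expected value in WT and 0.991 times in the Firre KO-labelled matrix, where its 2 upstream bins nearest to Sox2 remain low, at 0.468 times.

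Longer contacts that pass over the Sox2 bin differed in both directions. As block means they were higher in the Firre KO-labelled matrix from the bins 160 to 840 kb upstream and lower from those 40 to 120 kb upstream, but the split is not sharp. With the bins 400 to 480 kb downstream, 15 of the 18 bins at 160 to 840 kb had a higher mean and those 160, 200 and 520 kb upstream a lower one. Of the nearer bins, those 40 and 120 kb upstream had a lower mean. The bin 80 kb upstream was about equal, at 2.05 times in WT and 2.08 times in the other matrix. With the bins 760 to 960 kb downstream, 14 of the 18 had a higher mean and those 160, 200, 240 and 320 kb upstream a lower one. The 3 bins 400 to 480 kb downstream contacted the bins 160 to 840 kb upstream at 1.79 times the expected value in WT (1.66 to 1.94) and at 2.57 times in the other matrix (2.37 to 2.79). The bins 760 to 960 kb downstream contacted the same upstream bins at 2.66 times (2.46 to 2.89) and 3.98 times (3.68 to 4.32). Of the bin pairs in these blocks, 37 of 54 and 77 of 108 were higher in the Firre KO-labelled matrix. Among chromosome 3 pairs 760 kb apart, 46.2% had a log2 ratio of -0.02 or higher. No such share was computed for the longest distances or for the means of single upstream bins. With the bins 400 to 480 kb downstream, the bin 160 kb upstream went from 2.51 times (2.003 to 3.11) to 1.08 times (0.698 to 1.60), and the bin 520 kb upstream went from 2.59 (1.95 to 3.39) to 1.74 (1.15 to 2.55). The 3 bins nearest to Sox2 on the upstream side, 40 to 120 kb away, contacted the bins 400 to 480 kb downstream at 2.10 times in WT (1.89 to 2.33) and 1.70 times in the other matrix (1.45 to 1.99), a log2 ratio of -0.31 (-0.57 to -0.04). They contacted the bins 760 to 960 kb downstream at 2.78 times (2.43 to 3.18) and 1.79 times (1.46 to 2.20), a log2 ratio of -0.64 (-0.97 to -0.30). On the downstream side alone, contact between the bins 40 to 520 kb and the bins 760 to 960 kb downstream was lower, at 2.06 times in WT (1.95 to 2.19) and 1.59 times in the other matrix (1.46 to 1.73). These blocks were likewise chosen after the map had been seen.

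The insulation score measures how much contact passes over a bin, as the log2 of the mean contact in a square that joins the 480 kb on each side, relative to the mean of the chromosome. High values mean weak insulation. At the Sox2 bin the score was 0.33 in WT (0.28 to 0.38) and 0.52 in the Firre KO-labelled matrix (0.45 to 0.58). The difference was 0.19 (0.10 to 0.27), and 28.2% of chromosome 3 bins had a difference as high. The score is an interquartile mean averaged over neighbouring bins. The intervals carry the counting error of the plain mean of the square at that bin alone, so they are approximate for the score. With a 960 kb square the scores were 0.79 and 1.40 and the difference was 0.61, and on uncorrected read pairs the scores were 1.54 and 1.72 and the difference was 0.18. At the distal region bin the scores were 0.57 and 0.62. Upstream, the score 240 kb away was -0.0040 in WT and 0.53 in the other matrix, a difference of 0.53 that 5.17% of chromosome 3 bins reached and that was 0.29 with the plain mean in place of the interquartile mean. Downstream, from 680 to 1000 kb, the score was lower in the Firre KO-labelled matrix by differences from -0.40 to -0.48. Of chromosome 3 bins, 77.5 to 81.3% had a difference as high or higher, and only the remaining bins had a lower one. At 1000 kb the score was -0.68 in WT and -1.16 in the other matrix. With the plain mean the differences ran from -0.23 at 680 kb to -0.50 at 1000 kb.

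Boundaries were called where the score, averaged over the bins on each side, turns from falling to rising, which can lie 1 bin from its lowest value. Each matrix had 3 in the window. The upstream one lay from 33680001 to 33720000 in WT (strength 1.66, rank 17 of 174 on chromosome 3), in the bin with the start of Ttc14, and 80 kb closer to Sox2 in the Firre KO-labelled matrix (strength 1.56, rank 58 of 158). The downstream one lay from 35480001 to 35520000 in WT (strength 1.54, rank 26), in the bin with the last printed CTCF core, and in the next bin in the other matrix (strength 1.35, rank 71). It was the only one that both matrices shared within 1 bin.

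The boundary between them was weak in both. In WT it lay 240 kb upstream of the Sox2 bin with a strength of 0.43 (rank 129 of 174), and in the Firre KO-labelled matrix it lay 120 kb upstream with a strength of 0.17 (rank 152 of 158). With a smaller square of 240 kb, in contrast, a boundary was called in the Sox2 bin itself in both matrices, with a strength of 1.29 in WT (rank 82 of 252) and 1.40 in the Firre KO-labelled matrix (rank 99 of 234). The score at the Sox2 bin then had the opposite sign in both, -0.34 and -0.22. Boundaries in the bins 840 kb upstream, 480 kb downstream and 960 kb downstream were also called in both with this square.

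**Figure D4:**
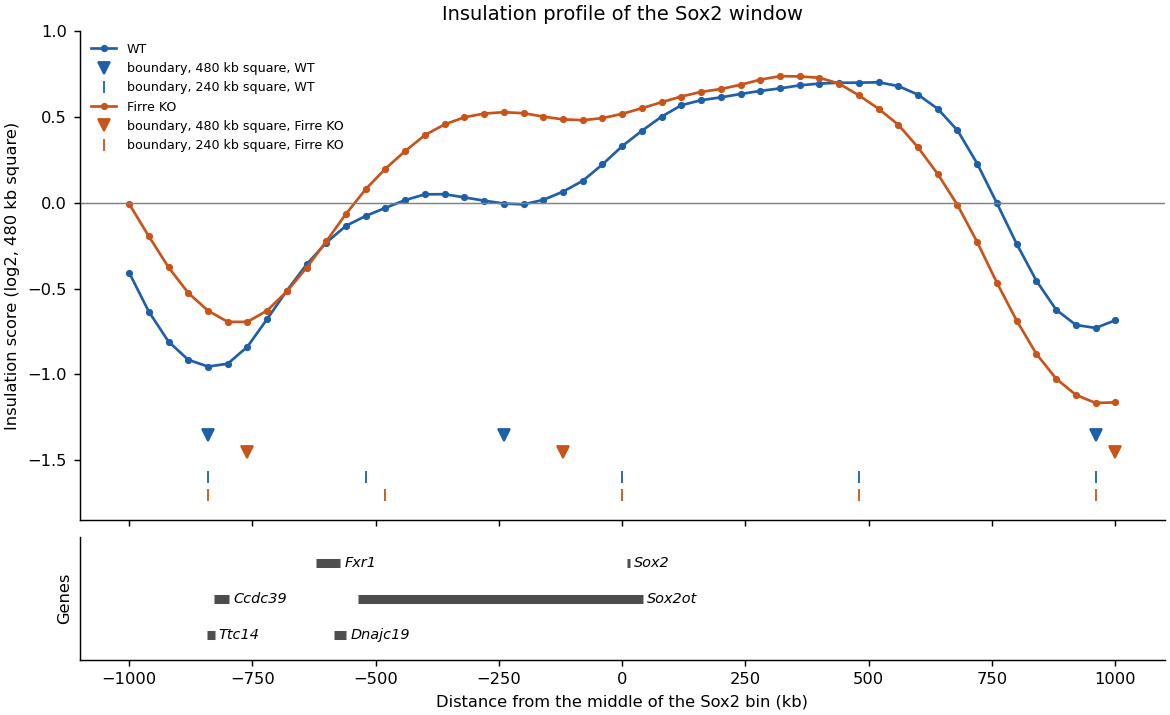
Insulation score of each 40 kb bin of the Sox2 window (top; log2, 480 kb square) in both matrices, with triangles for boundaries called with the 480 kb square and ticks for those called with the 240 kb square, above the protein-coding genes and Sox2ot (bottom). The score at the Sox2 bin is 0.33 in WT and 0.52 in the Firre KO-labelled matrix, the Firre KO-labelled curve is the higher one 240 kb upstream, and it is the lower one from 680 to 1000 kb downstream.

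Between the WT boundaries that flank Sox2, from 34320001 to 35480000, mean contact at 80 kb and more was 1.53 times the expected value in WT (1.495 to 1.566) and 1.44 in the Firre KO-labelled matrix (1.40 to 1.48), a log2 ratio of -0.09 (-0.14 to -0.04) that turned to 0.011 when sums were divided instead of values averaged. Contact of this domain with the 480 kb upstream went from 1.57 (1.51 to 1.63) to 2.42 (2.33 to 2.52), a log2 ratio of 0.62 (0.55 to 0.70) that was 0.36 with the boundaries of the Firre KO-labelled matrix. Contact with the 480 kb downstream went from 0.832 (0.792 to 0.874) to 0.631 (0.590 to 0.677), a log2 ratio of -0.40 (-0.52 to -0.28). Contact across the upstream side was thus higher and contact across the downstream side lower, beyond counting error in both cases.

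The compartment score separates the chromosome into bins that prefer each other as contact partners, and positive scores were assigned to the gene-rich kind. Of the 11 bins of 200 kb in the window, 10 were positive in WT and 0 in the Firre KO-labelled matrix. The bin with the Sox2 start scored 1.16 in WT and -0.87 in the other matrix, and the next one, with the distal region, scored 1.68 and -1.02. The window's scores ran from -0.82 to 1.68 in WT and from -1.64 to -0.76 in the Firre KO-labelled matrix, so they overlapped only through the lowest WT bin, at the upstream end. A change from positive to negative was found in 10 of the 11 bins, against 10.3% of the 778 bins of chromosome 3, while 15.7% of them changed from negative to positive and 0 of the 11 did.

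Across the 778 bins the scores of one matrix correlated with those of the other (r = 0.60) and with the number of genes per bin (r = 0.54 in WT and r = 0.35 in the Firre KO-labelled matrix), given as descriptions over bins of 1 chromosome. The first component held 9.42% and 7.41% of the variance. Contacts of the window with bins at least 2 Mb away were then compared, in an analysis added after these scores had been seen. The partners were the 208 bins that scored positive and the 368 that scored negative in both matrices, so they were picked by the scores themselves. The scores come from the same contacts, those of the window included. The direction of the preferences below thus largely follows from the scores and is not separate support for them.

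In WT the window contacted the positive bins at 0.970 times the expected value (11015 read pairs) and the negative bins at 0.697 times (9502 read pairs). In the Firre KO-labelled matrix it contacted the positive bins at 0.678 times (3507 read pairs) and the negative bins at 1.22 times (7265 read pairs). The log2 ratio of positive to negative partners was 0.48 (0.43 to 0.52) in WT and -0.84 (-0.91 to -0.77) in the other matrix. For the distal region bin alone it was 1.42 (1.08 to 1.77) and -0.86 (-1.29 to -0.44). For the Sox2 bin alone it was 0.77 (0.47 to 1.06) and -0.31 (-0.72 to 0.10), an interval that includes equal contact.

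**Figure D5:**
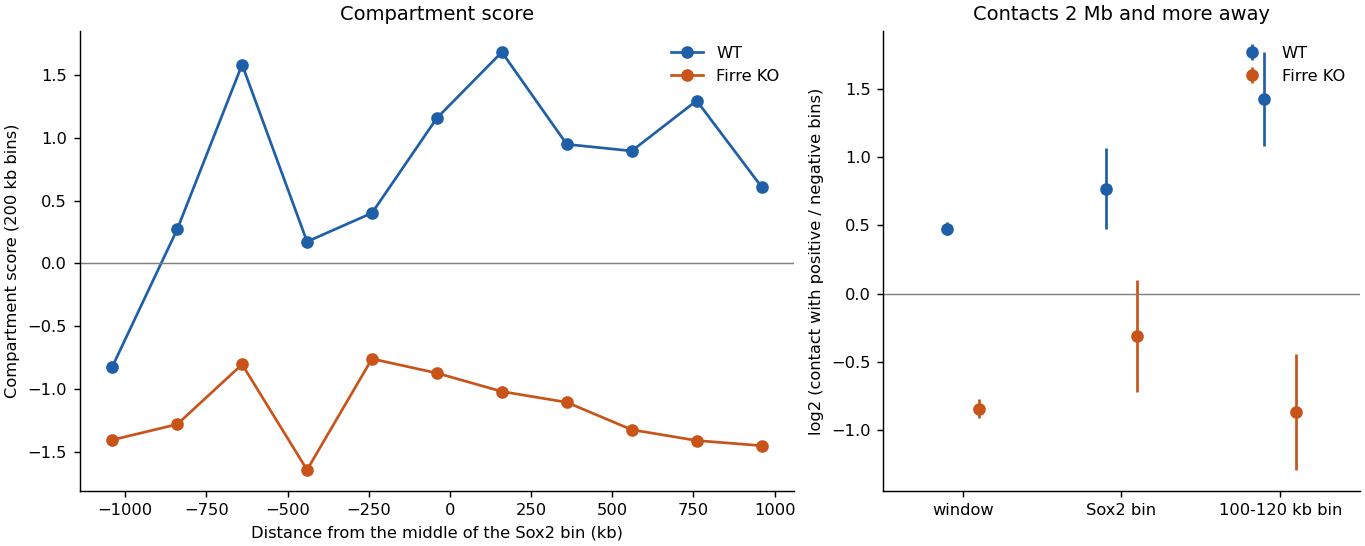
Left, compartment score of the 11 bins of 200 kb in the window against distance from the Sox2 bin in kb; right, log2 ratio of contacts with positive to contacts with negative bins at least 2 Mb away, for the whole window, the Sox2 bin and the distal region bin, with 95% counting intervals. WT has 10 of 11 scores above 0 and the Firre KO-labelled matrix none.

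Read pairs between chromosomes differed between the matrices in the same bins. They made up 14.8% of the read pairs of the Sox2 bin in WT and 23.7% in the Firre KO-labelled matrix, and 18.0% and 26.8% of those of the distal region bin. Subtracting the mean contact between autosomes from observed and expected values left the log2 ratio of Sox2 with the distal region at -0.84. Across the upstream and downstream sides of the domain the log2 ratios were then 0.63 and -0.40. Little was subtracted, 0.0057 in WT and 0.0090 in the Firre KO-labelled matrix, against expected values of 37.7 and 20.7 at 120 kb. Any other part of these read pairs was not tested. The part of culture, of cell line and of other differences between the libraries was not tested either.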

How the data were processed

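Hi-C was measured in 4 libraries of male mESCs, 2 per group, and 1 pooled matrix per group was used. The authors mapped reads to mm9, filtered and binned them at 40 kb and corrected the matrix iteratively with HiC-Pro 2.7.8, so that the deposited signal gives every kept bin of a matrix the same total. The bin tables were the same in both groups. Their chromosome lengths equalled those of the mm9 sequence, and genes came from GENCODE of that build.

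Corrected values were modelled as integer read pair counts scaled by 1 weight for each bin. After weights were fitted, 99.9993% and 99.9999% of the entries lay within 0.05 of an integer (largest deviations 0.462 and 0.397), with 65611012 and 46635643 read pairs over 62678 and 62625 kept bins. Expected values were means of chromosome 3 at the same distance. Intervals at 95% were exact Poisson for single contacts, Clopper-Pearson for ratios, Fay-Feuer gamma for sums, and normal approximations for log2 ratios of sums, insulation scores and the downstream share. They treat weights and expected values as fixed and cover counting error only, because no molecular identifiers mark independent molecules. Comparisons are of 2 matrices, not of conditions.

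Insulation followed the study's settings in an own implementation, with a 480 kb square, a 320 kb delta span, 160 kb smoothing, the interquartile mean and strengths above 0; bin pairs next to each other on the chromosome were left out of contact averages by a minimum of 80 kb. Compartment scores are the first eigenvector of the correlation matrix in 200 kb bins, with observed over expected values limited to 5. Named bins were the Sox2 bin, the distal region bin, its mirror, the boundaries and the 5 highest contacts of each matrix; named genes were all protein-coding and named long non-coding genes of the window. Other bins given with values (such as those 80 and 160 kb downstream and 160 to 320, 360, 520 and 720 kb upstream), SNORA17, Gm5708, blocks, stretches and partner bins were chosen after values were seen. The locus and lists were chosen with earlier results of these data known. Steps were tested on simulated data. Python 3.11.15, numpy 2.4.6, scipy 1.17.1 and pandas 2.3.3 were used.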

Additional observations from a re-analysis of the deposited data

How the results depend on the processing

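Of 76 alternatives to the values at Sox2, 46 kept direction and size, 27 moved a value beyond its counting interval or a count by over 1.5 times, and 3 reversed one. Uncorrected read pairs raised Sox2 contact with the distal region to 3.18 in WT and 1.70 in the Firre KO-labelled matrix and the Sox2 insulation scores to 1.54 and 1.72. They gave 37 and 34 bins past 2-fold, 3 bins higher and 3 lower, 1 boundary in the Firre KO-labelled matrix, and log2 ratios of -0.17 inside the domain and 0.50 across its upstream side. The mean of 3 by 3 bins gave 1.18 for WT contact with the distal region. Up to 480 kb the downstream share in the Firre KO-labelled matrix was 45.9%. A 240 kb square gave 5 boundaries in each matrix and Sox2 scores of -0.34 and -0.22, of the opposite sign, and a 960 kb square gave 1 boundary in each, scores of 0.79 and 1.40 and a difference of 0.61. With the plain mean the scores were 0.20 and 0.35. As a ratio of sums, the log2 ratio was 0.011 inside the domain, which reversed it, and 0.52 upstream, and with the domain of the Firre KO-labelled matrix it was 0.36 upstream. A limit of 1.5-fold gave 17 bins in WT, 13 higher and 6 lower. The cause was not tested, except that a lower limit counts more bins by construction. The log2 ratio of Sox2 with the distal region kept its sign under each alternative, from -0.90 to -0.51.

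No paired analysis was possible because each group had 1 pooled matrix, and leaving out a library was not possible for the same reason. Depth limits single contacts: 14 of the 48 Sox2 contacts in WT and 21 of 48 in the Firre KO-labelled matrix rest on fewer than 20 read pairs.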
